A study of Mus musculus with 13 samples.

Results

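Car8 and Car9 are the 2 carbonic anhydrase genes in the stretch of mouse chromosome 4 where gene names could be matched to counts in RNA sequencing of CD45-positive cells from EL4 tumours. They are 2 of 56923 gene IDs counted and 2 of 16 IDs that carry a carbonic anhydrase name. Members were chosen by their place in that stretch and with their CPM in PSGL1_KO against vector libraries, and by the first digit of the file number, already in view, so their levels in both divisions are given as descriptions with no test. EL4 is a mouse T-cell lymphoma line, and PSGL-1 is the leukocyte glycoprotein, made by Selplg, that selectins bind. The series title asks whether PSGL-1 of the tumour restrains phagocytosis by macrophages through LFA-1. Mice aged 6 to 8 weeks received 500000 EL4 cells under the skin, either vector cells or PSGL1 KO cells, and about 20 days later CD45-positive cells were sorted from the digested tumours. The sources used here do not give the strain or sex of the mice or the number of knockout clones. In both groups the host is described only as mice, and the knockout is in the injected EL4 cells, which are themselves of the CD45-positive lineage. The sort can therefore hold lymphoma cells beside host leukocytes. There were 7 vector and 6 PSGL1_KO libraries, named below by the replicate numbers of their titles. Whether every library is a separate mouse is not in the titles, and p-values below therefore cover only the spread between libraries.

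Carbonic anhydrases are zinc enzymes that interconvert carbon dioxide and bicarbonate, and so set how quickly acid made by metabolism is buffered or exported. Car9 encodes a membrane-bound form with its catalytic domain outside the cell, a classical target of hypoxia-inducible factors in poorly perfused tumours. Car8 encodes a relative that has lost catalysis, binds the inositol trisphosphate receptor, the calcium channel of the endoplasmic reticulum, and is best known from Purkinje neurons of the cerebellum.

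Car8 lies on GRCm38 chromosome 4 from 8143362 to 8239041 on the minus strand (ENSMUSG00000041261.10) and spans 95.7 kb. Its exons cover 3853 bases and overlap no exon of another gene. Car9 lies on the same chromosome from 43506966 to 43513729 on the plus strand (ENSMUSG00000028463.15) and spans 6.8 kb. Its exons cover 2304 bases, of which 214 overlap the antisense gene Gm12454, so reads there cannot be told apart without strand. RefSeq starts Car9 60 bases downstream of the GENCODE start. The upstream sequence is shown because Car9 is known as a hypoxia-regulated gene, in 2 pieces from the RefSeq promoter table (GRCm38.p6, plus strand), with motif matches in capitals.
chr4:43506776-43506965: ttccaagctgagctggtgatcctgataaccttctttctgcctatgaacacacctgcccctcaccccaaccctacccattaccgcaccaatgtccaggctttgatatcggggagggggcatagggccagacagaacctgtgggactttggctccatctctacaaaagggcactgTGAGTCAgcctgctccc
chr4:43506996-43507025: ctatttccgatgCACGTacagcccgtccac
The first piece ends where the GENCODE transcript begins. Its capitals match the AP-1 motif TGACTCA on the reverse strand, 77 to 71 bases before the RefSeq start. The second is a site inside the GENCODE 5′ end, and its capitals match the hypoxia response core ACGTG on the reverse strand, 18 to 14 bases before the RefSeq start. Both strands of the 250 bases before each RefSeq start were searched. Of 32851 promoters, 16.6% held ACGTG and 4.46% held TGACTCA. The GC box, in 32.7% of promoters, and the palindromic E-box that contains the hypoxia core, in 6.02%, had 0 matches in the Car9 window. These are letter matches and not sites shown to be bound.

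Counts over gene IDs ranged from 3710817 to 5712566 per library, with a median of 4584464, and made up 10.5% to 12.5% of the total of each file. Over most of the genome the names did not match the counts: 347 IDs of genes that nearly all cells use, lying outside the matched stretches, lay at a median of 0.379 CPM (counts per 1e6 gene counts of the library), against 1549 CPM for 10 such IDs inside them. Only the 1267 IDs of 3 stretches, on chromosomes 4, 6 and 15, were therefore read by name, and 378 of these had enough counts to be tested. The level inside was partly set by the choice of stretches, which were kept only with no such housekeeping ID under 20 CPM. Srsf12, at 0.27 CPM inside the chromosome 4 stretch, had been taken off the housekeeping list for its value. The level inside is therefore no separate check of the names. Selplg was outside them, at 11 to 53 counts in vector and 3 to 63 counts in PSGL1_KO libraries, and could not check the labels. Ptprc, which encodes CD45, was also outside, so the sort could not be checked by its own marker. The stretch that holds Car8 and Car9 ran from 3167320 to 59618689 on chromosome 4. It was joined from 1 run that ends at 41769474 and another that starts at 43002343. The run with Car9 had 146 protein-coding genes and 0 housekeeping IDs of its own, and Vcp, at 1293 CPM, lies in the gap just before it. Within 500 kb of Car9, Tln1, Stoml2 and Rgp1, which most cells express, had 664.6, 341 and 236 CPM in vector libraries. These genes were named after their values were seen and do not check the names there.

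Car8 was low in the vector libraries and about an order of magnitude higher in all PSGL1_KO libraries. The 7 vector libraries, in the order of their replicate numbers, had 21, 5, 31, 9, 35, 15 and 28 counts, and the 6 PSGL1_KO libraries had 202, 226, 234, 274, 324 and 210. As TMM-normalised CPM these were 5.37, 1.09, 7.41, 1.98, 8.43, 2.96 and 7.12 in vector libraries. In PSGL1_KO libraries they were 48.8, 61.6, 43.5, 45.9, 54.3 and 39.9. The groups did not overlap: the highest vector library, replicate 5, was far under the lowest PSGL1_KO library, replicate 6. The means were 4.91 ± 2.91 CPM (SD, n = 7) and 49.0 ± 7.87 CPM (SD, n = 6). In the edgeR fit over all gene IDs the log2 fold change (log2FC, PSGL1_KO minus vector) of Car8 was 3.33 ± 0.33 (SE), with a 95% interval from 2.64 to 4.02, a 10.1-fold difference.

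Car9 was higher in the PSGL1_KO libraries by a smaller factor. Counts of Car9 by replicate number were 11, 31, 42, 43, 35, 41 and 48 in the vector group. In the PSGL1_KO group they were 66, 82, 123, 117, 137 and 84. These were 2.81, 6.74, 10.0, 9.44, 8.43, 8.09 and 12.2 CPM in vector libraries. The PSGL1_KO libraries had 15.9, 22.4, 22.8, 19.6, 23.0 and 16.0 CPM. Again the groups did not overlap, but the gap was narrow, between 12.2 CPM in vector replicate 7 and 15.9 CPM in PSGL1_KO replicate 1. The lowest Car9 value was that of vector replicate 1. The means were 8.25 ± 2.95 CPM (SD, n = 7) and 19.9 ± 3.32 CPM (SD, n = 6), which made the log2FC 1.27 ± 0.24 (SE), with a 95% interval from 0.76 to 1.78, a 2.41-fold difference. In bulk samples a larger share of cells that express a gene and more of its RNA per cell cannot be told apart, and this holds for every level given here.

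**Figure D1:**
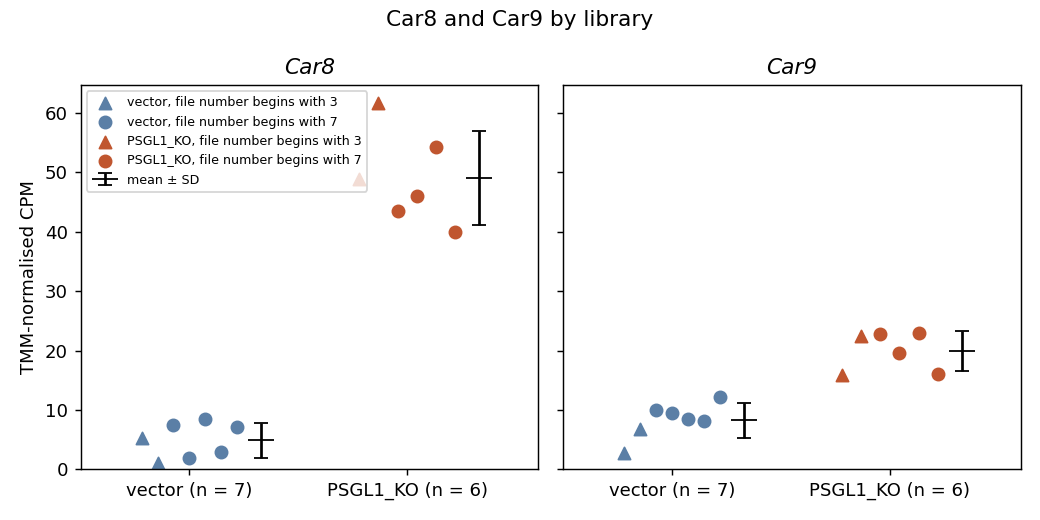
Each point is 1 library, with TMM-normalised CPM on the vertical axis, Car8 on the left and Car9 on the right; triangles and circles are file numbers that begin with 3 and 7, and bars are the mean ± SD. For both genes the 6 PSGL1_KO libraries lie above all 7 vector libraries, by a wide gap for Car8 (8.43 to 39.9 CPM) and a narrow one for Car9 (12.2 to 15.9 CPM).

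Both genes thus had 6 of 6 PSGL1_KO libraries above every vector library. Among all 10422 gene IDs tested 431 had this separation, 4.14%, and among the 378 name-checked IDs 38 had it, 10.1%. Since the same contrast was in view when the genes were chosen, nothing is read from these shares. By the size of its log2FC Car8 had 24 tested IDs above it, of which 1, the noncoding RNA AI427809, was name-checked. Car9 had 416 tested IDs above it, 25 of them name-checked. In mean level over all 13 libraries Car8 was above 58.3% and Car9 above 44.7% of the IDs tested, most of which were not name-checked. For Car8 this mean joins 4.91 CPM in vector with 49.0 CPM in PSGL1_KO libraries. At an adjusted p below 0.05, 9.02% of all IDs tested were higher and 5.49% lower in PSGL1_KO. For name-checked IDs these shares were 20.6% and 4.5%. The median log2FC was -0.01 over all IDs tested and 0.20 over name-checked IDs. Scaling on name-checked IDs moved the median over all IDs to -0.21, and library totals moved it to 0.12. Relative to that median Car8 was at 3.34, 3.34 and 3.37 with TMM, name-checked scaling and library totals, and Car9 at 1.28, 1.28 and 1.30. The balance of calls did depend on scaling: it was 940 higher and 572 lower with TMM, 601 and 1170 with name-checked scaling, and 1197 and 285 with library totals. Name-checked calls were 78 and 17, 52 and 40, and 96 and 14 in the same order.

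The spread among replicates differed between the genes in the vector group. The coefficient of variation of Car8 was 59.3% over vector and 16.1% over PSGL1_KO libraries. That of Car9 was 35.7% and 16.6%. The vector counts of Car8 ranged from 5 to 35, and the part of counting error in the wider vector spread was not tested.

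Levels of the 2 genes can be compared only per length of exon. Per kb, the level of Car8 was 1.27 ± 0.75 CPM over vector libraries (SD, n = 7) and 12.7 ± 2.04 CPM over PSGL1_KO libraries (SD, n = 6). Car9, over the 2090 exon bases free of the antisense gene's exons, had 3.95 ± 1.41 and 9.55 ± 1.59 CPM per kb. If reads in the overlapping bases were counted for Car9, this level is an upper estimate. The ratio of Car8 to Car9 per kb ranged from 0.0875 to 1.04 in vector libraries, with a median of 0.316, and from 1.03 to 1.66 in PSGL1_KO libraries, with a median of 1.32. Car8 exceeded Car9 in 6 of 6 PSGL1_KO libraries and in 1 of 7 vector libraries, replicate 1, which had the lowest Car9. By this measure the order of the genes was reversed between the groups in all libraries but that one. The ratio of that library, 1.04, was just above the lowest PSGL1_KO ratio. Exon length here joins all annotated exons of a gene, and which transcripts were present is not known. Ratios close to 1 could therefore fall on the other side with another length.

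**Figure D2:**
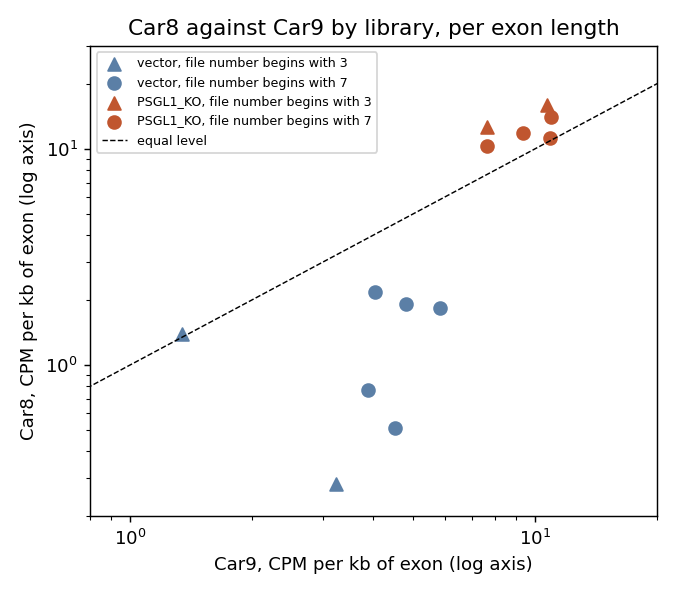
Each point is 1 library, with Car9 on the horizontal and Car8 on the vertical axis, both in CPM per kb of exon on log axes; the dashed line marks equal levels. The 6 PSGL1_KO libraries lie above the line at the upper right, the nearest at a ratio of 1.03, and the vector libraries lie below it except vector replicate 1, at 1.04.

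The libraries also differed by the first digit of the file number, 3 for vector replicates 1 and 2 and PSGL1_KO replicates 1 and 2, and 7 for the others. What the digit stands for is not given. With the group in the model, 4144 of 10422 IDs differed between the digits. Within digit 3 Car8 averaged 3.23 CPM (vector) and 55.2 CPM (PSGL1_KO), and within digit 7 it averaged 5.58 and 45.9 CPM. The groups did not overlap within either digit, which follows from their separation over all 13 libraries. The log2FC of Car8 was 4.17 within digit 3 and 3.05 within digit 7, and the difference between these, from the interaction term, was -1.08 ± 0.65 (SE, digit 7 minus 3). Car9 averaged 4.78 and 19.2 CPM within digit 3 and 9.64 and 20.3 CPM within digit 7. Its log2FC was 2.0 and 1.07, with an interaction of -0.89 ± 0.43. For both genes the estimate was larger within digit 3, where the vector means were lower. The 95% intervals of these interactions were -2.45 to 0.30 and -1.79 to 0.01, given as a description. Across groups, digit 7 minus 3 was 0.08 ± 0.31 for Car8 and 0.46 ± 0.23 for Car9. The interaction was past the threshold in 220 of the 10422 IDs.

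The other 14 carbonic anhydrase IDs lie outside the matched stretches and are not read by name. Car1, Car2, Car3 and Car13, a cluster of cytosolic forms, had 0 counts in all 13 libraries. These 4 zeros cannot be taken as absence of the genes' RNA. Car12, another membrane form linked to tumours, had at most 4 counts, and Car14, also bound to the membrane, 6 to 31. Car6, the secreted form, lies on chromosome 4 but outside the stretch, at 6 to 32 counts. The highest ID, Car5b, a mitochondrial form, averaged 600.4 CPM. None of these levels is interpreted.

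Among hypoxia-responsive genes other than Car9, Rragd, Tes and Sdc2 rose in PSGL1_KO libraries and none fell in the fit over all 13 libraries. Of 139 such genes listed, 9 were name-checked and 8 were tested, of which 3 were higher and 0 lower, with a median log2FC of 0.50. Over all name-checked IDs tested 20.6% were higher and 4.5% lower, with a median of 0.20, and over all IDs tested 9.02% were higher. Rragd, a Rag GTPase of nutrient signalling at the lysosome, averaged 5.60 ± 0.66 CPM in the vector group (SD, n = 7) and 21.5 ± 4.19 CPM in the PSGL1_KO group (SD, n = 6). Its log2FC was 1.94, at adjusted p = 1.0e-06 by edgeR. Tes, a focal adhesion protein, went from 17.9 ± 3.19 to 35.9 ± 7.70 CPM, with log2FC 1.00 and adjusted p = 0.00076. All 6 PSGL1_KO libraries exceeded every vector library in Rragd and Tes, as in 10.1% of the name-checked IDs tested. Sdc2, a heparan sulfate proteoglycan of mesenchymal cells, went from 9.59 ± 3.81 to 19.2 ± 9.42 CPM, with log2FC 0.99 and adjusted p = 0.046. The groups overlapped in Sdc2, with 4 of 6 PSGL1_KO libraries above all vector libraries. Sdc2 also did not pass within digit 7 (adjusted p = 0.092), with name-checked scaling (0.096) or without any one of vector replicates 2 to 7 or PSGL1_KO replicates 1, 2, 4 or 6, at adjusted p of 0.052 to 0.12. The members that did not pass were Met, a receptor kinase, with a log2FC of 0.53, Cav1, caveolin 1, with 0.46, Pnrc1, a nuclear receptor coactivator, with 0.16, Zfp292 with 0.06 and Grhpr, glyoxylate reductase, with -0.28. Their adjusted p were from 0.21 to 0.90. Within digit 3, where 6 list members passed, Cav1, Met and Pnrc1 were among them. Within digit 7 Grhpr passed as lower, with log2FC -0.39 and adjusted p = 0.049, and Met passed as higher without vector replicate 5, with 0.76 and adjusted p = 0.043. The sign of Pnrc1 turned with name-checked scaling, that of Zfp292 with this scaling and within digit 3, and that of Grhpr within digit 3. The usual core of a hypoxic response, such as glycolytic enzymes and Vegfa, is mostly outside the matched stretches. No statement on hypoxia in these tumours is made from 8 genes.

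Of the genes that share the pH role of Car9 or the calcium role of Car8, only 1 each was tested. Both were higher, as were 20.6% of all name-checked IDs tested, so nothing is read about either role. Of 55 acid-base transport genes listed, 4 were name-checked and 1 was tested. This was Atp6v0d2, a subunit of the proton pump in macrophages and osteoclasts, which averaged 55.0 ± 21.9 CPM in the vector group (SD, n = 7) and 109.7 ± 43.0 CPM in the PSGL1_KO group (SD, n = 6). Its log2FC was 1.00, at adjusted p = 0.025 by edgeR. The call was lost without PSGL1_KO replicate 4 (0.79, adjusted p = 0.077) and with name-checked scaling (0.81, adjusted p = 0.085). Atp6v0d2 also counts among the macrophage and myeloid markers below. The water channels Aqp3 and Aqp7 and the anion exchanger Slc26a7 had too few counts. Of 56 genes of inositol trisphosphate and calcium signalling, 4 were name-checked and 1 was tested. This was Asph, which encodes aspartate beta-hydroxylase and the calcium-binding junctate of the endoplasmic reticulum. It went from 23.6 ± 3.50 to 65.2 ± 15.9 CPM, with log2FC 1.46 and adjusted p = 1.39e-05. All 6 PSGL1_KO libraries exceeded every vector library in Asph, as in 10.1% of the name-checked IDs tested. Its exons overlap Clvs1 on the other strand. The receptors that Car8 binds, Itpr1 and its relatives, are outside the matched stretches. Calb1, a calcium buffer of the Purkinje neurons in which Car8 is best known, had 0 counts in all libraries.

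**Figure D3:**
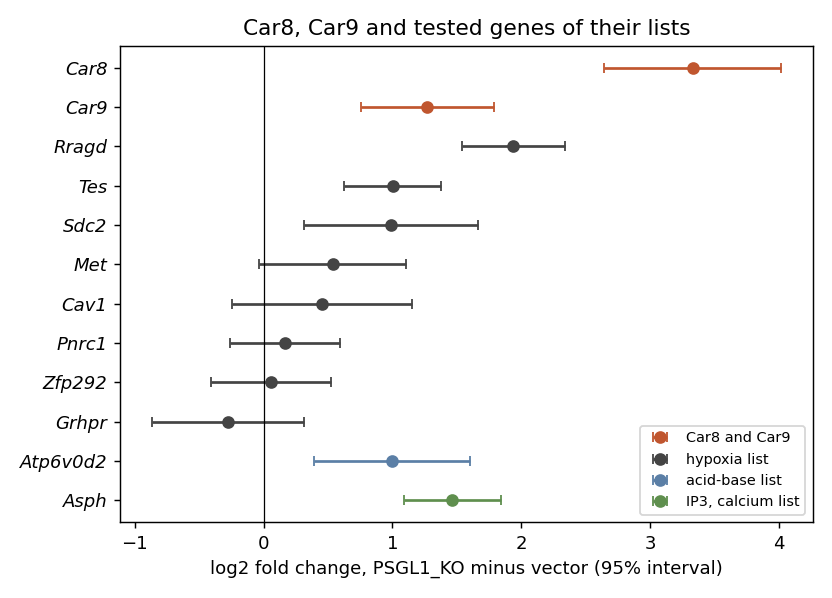
Points are log2 fold changes (PSGL1_KO minus vector) from the edgeR fit with 95% intervals, for Car8, Car9 and the tested name-checked genes of the hypoxia, acid-base and inositol trisphosphate and calcium lists. Car8, at 3.33, lies to the right of all others, and the intervals of Met, Cav1, Pnrc1, Zfp292 and Grhpr include 0.

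Some markers of several cell types differed between the groups, and the direction varied between the lists. Of 5 name-checked macrophage and myeloid markers 4 were higher and 0 lower, where 20.6% of all name-checked IDs were higher, and their summed level was 321 to 470.4 CPM in vector and 751 to 1126 CPM in PSGL1_KO libraries. Lyn, a kinase of myeloid and B cells, had a log2FC of 2.07, Cd72, a lectin of B cells and some macrophages, 2.27, and Tfec, a macrophage transcription factor, 1.41, with adjusted p of at most 0.00011 in the edgeR test. The other one was Atp6v0d2, whose call was lost without PSGL1_KO replicate 4 (adjusted p = 0.077) and with name-checked scaling (0.085). Abca1, the remaining one of the 5, did not pass but is part of the summed level. Of 3 B-cell markers 2 were higher and 0 lower, and their summed level was 78.3 to 153 against 415.9 to 605.5 CPM. These were Lyn and Cd72 again, which both lists hold, and Pax5, the transcription factor that defines B cells, did not pass. Adgre1, C1qa and Csf1r of macrophages and Cd79a of B cells, which define these cells, were outside the matched stretches. The summed levels of the myeloid and B-cell markers did not overlap between the groups, but Lyn and Cd72 are in both sums. Of single name-checked IDs tested, 10.1% had every PSGL1_KO library above every vector library, so nothing is read from these sums. The part of myeloid and B cells in the results was not tested.

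Of 12 name-checked stromal markers 10 were tested, 4 were higher and 0 lower. Over all name-checked IDs tested 20.6% were higher and 4.5% lower, which also stands beside the other lists here. The higher ones were Tgfbr1, a receptor of transforming growth factor beta, with a log2FC of 0.90, Npr2, a natriuretic peptide receptor, with 0.89, Reck, an inhibitor of matrix metalloproteinases, with 0.54, and Sdc2, with adjusted p from 0.0082 to 0.046. Npr2 was lost without any one of vector replicates 1, 2, 4 or 6 or PSGL1_KO replicates 4, 5 or 6, at adjusted p of 0.0598 to 0.11. Within digit 3 (adjusted p = 0.27) and with name-checked scaling (0.11) Npr2 did not pass either, and Reck was lost with name-checked scaling (0.14) and without the filter on low counts (0.093). Sdc2 was also lost with name-checked scaling (0.096), among the settings given above. The summed stromal level overlapped, at 1012 to 2503 CPM in vector and 1142 to 4619 CPM in PSGL1_KO libraries. Neither of 2 endothelial markers passed, at 94.4 to 161 against 64.4 to 327 CPM in sum. Of 5 genes listed for T cells and EL4, 1 was higher and 1 lower. Bach2, a transcriptional repressor of lymphocytes, rose by 1.18 on the log2 scale at adjusted p = 0.014 (0.055 without the filter on low counts). Sit1, an adaptor of the T-cell receptor, fell by 1.01 with adjusted p = 0.0026. Il7r, Tox and Clta, a clathrin light chain, did not pass. The 5 genes summed to 1039 to 1634 against 1322 to 1806 CPM. Clta made up much of this sum, with group means of 844.7 (vector) and 1053 CPM (PSGL1_KO). The sum is therefore not read as a level of T cells or EL4. Grhl2, an epithelial transcription factor, fell by 0.66 with adjusted p = 0.0066, and Aqp3 and Sdr16c5 of the same list were too low to test. Of 4 neuronal markers only Dlx6 was tested, which fell by 1.90 with adjusted p = 0.0015 (0.061 within digit 3), at 4.90 against 1.33 CPM. Erythroid markers, among which Car1 and Car2 count, had 0 name-checked members. The part of these cell types in the levels of Car8 and Car9 was not tested.

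The genes around Car8 were also higher in PSGL1_KO, by less than Car8 itself. Within 500 kb there are 2 other protein-coding genes, both tested and both higher. Rab2a, a GTPase of transport between the endoplasmic reticulum and the Golgi apparatus, 296.6 kb away, went from 330.2 to 492 CPM, with log2FC 0.57 ± 0.15 (SE) and adjusted p = 0.016 by edgeR. Chd7, a chromatin remodeller, 451.4 kb away, went from 96.5 to 172 CPM, with log2FC 0.84 ± 0.19 and adjusted p = 0.0058 (0.052 with name-checked scaling). Around Car9 the genes were mixed. Of 36 protein-coding genes within 500 kb 25 were tested, of which 8 were higher and 1 was lower, with log2FC from -1.01 to 2.27 and a median of 0.32. The shares over all name-checked IDs were 20.6% and 4.5%, with a median of 0.20. The nearest called genes were Sit1, 23.2 kb away, which fell, Creb3, a transcription factor of the endoplasmic reticulum 48.6 kb away, with 0.65 ± 0.14 and adjusted p = 0.0047, and Cd72, with adjusted p = 6.2e-06. Exons of Creb3 overlap those of Tln1 and Gba2, and exons of Cd72 those of Tesk1, on the other strand. Tln1, 17.8 kb away, was at 664.6 and 665.2 CPM. Tpm2, a tropomyosin of muscle and fibroblasts, lies 0.982 kb past the end of Car9 and had log2FC 0.80 at adjusted p = 0.14. Gm12454, whose exons overlap those of Car9, went from 6.72 to 12.1 CPM, with log2FC 0.85 and adjusted p = 0.013. Its call was lost within digit 3 (0.64, adjusted p = 0.26) and with name-checked scaling (0.67, adjusted p = 0.072). Reads of this antisense gene and of Car9 cannot be fully separated.

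**Figure D4:**
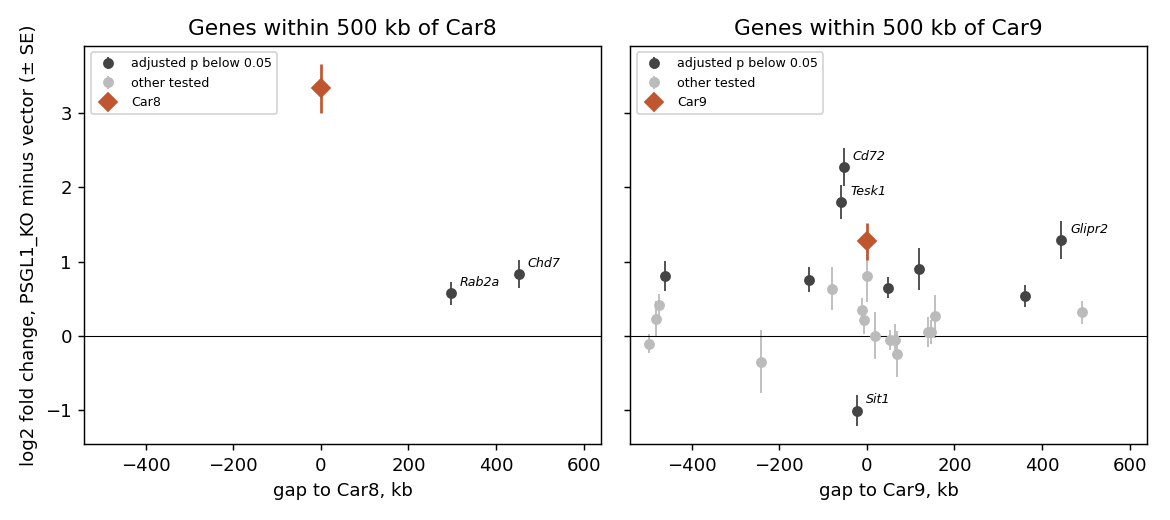
Points are tested protein-coding genes within 500 kb of Car8 (left) and Car9 (right), with the gap to the gene in kb on the horizontal axis and log2 fold change ± SE on the vertical; dark points have an adjusted p below 0.05. The 2 neighbours of Car8 lie above 0 and far below Car8, and the 25 around Car9 spread from -1.01 to 2.27 on both sides of 0.

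The genes whose levels were most like those of Car8 over the 13 libraries were AI427809, with a Pearson r of 0.97 on log2(CPM + 1), Lyn with 0.96, Otulinl, a relative of a deubiquitinase, with 0.94, Rragd with 0.94 and Atp8b5, a phospholipid-transporting ATPase, with 0.94. Most like Car9 were Otulinl with 0.92, Reck with 0.91, Cd72 with 0.90, Tdrd7, a tudor domain protein, with 0.89 and Tesk1, a kinase of actin regulation, with 0.88. In each case 377 name-checked IDs were compared. Car9 was only the 38th most like Car8, with r of 0.81, and Car8 the 19th most like Car9. These coefficients describe mainly the step between the groups, which all these genes share, over libraries that also share the file-number digits. Taking out the mean of each group and digit gave other genes. Those named are only the 3 highest of 377 coefficients for each gene, and Car8 had 5 to 35 counts in vector libraries. Car8 then went with Impad1, a Golgi phosphatase, at 0.92, Mtdh, metadherin, at 0.91 and Tmem106b, a lysosomal membrane protein, at 0.88. Car9 went with Galt, of galactose metabolism, at 0.91, Gm44380, an unconfirmed transcript, at 0.91 and Dnajb5, a co-chaperone, at 0.75. None of these 6 genes passed the test of PSGL1_KO against vector, with log2FC of 0.52, 0.25 and 0.05 for those of Car8 and of -0.03, -0.07 and -0.05 for those of Car9. Impad1 did pass with the file-number digit as a covariate (adjusted p = 0.0017), with the replicate number as a block (0.0099), within digit 7 (0.0014) and without vector replicate 1 (0.020). The signs of Tmem106b, Galt, Gm44380 and Dnajb5 turned under other settings. Within groups and digits Car8 and Car9 had an r of -0.23, a weak value over 13 libraries. In both genes PSGL1_KO replicate 2 was above replicate 1, and within digit 7 replicate 5 was the highest and replicate 6 the lowest of the PSGL1_KO libraries. In the vector libraries of digit 3 the 2 genes went opposite ways. Vector replicates 1 and 2 had 5.37 and 1.09 CPM of Car8, and 2.81 and 6.74 CPM of Car9. Within digit 7 of the vector group Car8 was highest in replicate 5 and Car9 in replicate 7.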

How the data were processed

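RNA was sequenced from 13 samples of sorted CD45-positive cells, with total RNA and a NEBNext Ultra kit per the labels' protocols. The authors deposited raw read counts per gene ID, 1 file per sample, with 5 HTSeq summary rows that entered neither library sizes nor tests. The submitters' processing notes name HISAT2, SAMtools, HTSeq and mm10. Their versions, the annotation release and the strandedness of the counting are not given in the sources consulted. Reads over no feature were 67.3% to 75.4% of each file, reads with several alignments 7.71% to 13.6%, unaligned reads 1.05% to 3.47%, alignments of low quality 3.55% to 5.67% and reads over several genes 0.31% to 0.47%. Of the IDs, 52073 matched a symbol without their version, and GENCODE M21 (GRCm38, which is mm10) gave the coordinates.

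Stretches where names match counts came from a 2-state hidden Markov model over the mean CPM of protein-coding genes, binned at 2, 20 and 100 CPM, and were kept at a posterior above 0.99, at least 5 Mb and 20 genes, and no housekeeping ID under 20 CPM. Runs of at least 5 genes up to 2 Mb apart were joined. These settings, the joining and the list of housekeeping genes were settled after the values had been seen, so as to recover the stretch in which Car8 and Car9 had been described: Srsf12, at 0.27 CPM inside it, was taken off that list for its value, as a tissue-restricted gene, and with it on the list the joined stretch would have failed the last condition. Car8 and Car9 were in a kept stretch with limits of 1, 10 and 50 CPM, with a stay probability of 0.999, with fitted emission probabilities and without joining, where the stretch of Car9 had 0 housekeeping genes. A stretch without any housekeeping gene was otherwise not used. Name-checked IDs held 8.27% of gene counts.

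The groups were compared over all 13 libraries with the quasi-likelihood test of edgeR 4.0.16 in R 4.3.3 (robust, TMM, filterByExpr, group as the only term, two-sided), with Benjamini-Hochberg adjustment over 10422 IDs and a threshold of 0.05. The test was also tried on counts simulated with the means, library sizes and common dispersion of these data. The simulated counts held no difference by file-number digit. Alternatives were DESeq2 1.42.0, other scalings, no filter on low counts, the file-number digit, a replicate block and each library left out. Per-kb levels divide CPM by exon length, and SDs are over libraries. Genes named were Car8 and Car9, tested members of the hypoxia, acid-base and calcium lists, overlapping and nearest called neighbours, called markers, and the 5 IDs most correlated with each gene by level and 3 by deviation. Tln1, Stoml2, Rgp1, Tpm2 and unchecked family IDs were named after their values were seen. Car8, Car9, the lists and the tests were chosen with earlier results of these data known. Promoter sequences came from the RefSeq table, which had 0 entries for Car8.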

Additional observations from a re-analysis of the deposited data

Results flagged for a closer look

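Of 74 sets of values, 1 per named gene and group, 3 had 1 library apart from the others by Dixon's criterion at 95%, the gap to the nearest library over the range of the group, and chance gives about 1 in 20 for such sets. Rragd, one of the genes most like Car8, had 13.3 CPM in PSGL1_KO replicate 6 against 21.5 to 24.8 CPM in the other PSGL1_KO libraries, and that library also had the lowest Car8 of its group. AI427809, the gene most like Car8, had 10.4 CPM in vector replicate 2 against 17.6 to 22.9 CPM in the other vector libraries. That library had the lowest Car8 of all, 1.09 CPM. Rragd and AI427809 are among the genes most like Car8 over these same libraries, so nothing is read from the shared low libraries. Gm44380, near Car9 in its deviations, had 4.64 CPM in PSGL1_KO replicate 2 against 2.18 to 2.97 CPM in the others. Among 35 named genes other than Car8 and Car9, AI427809 alone had a group difference that itself differed by the file-number digit, with a log2FC of 3.16 within digit 7 and 4.35 within digit 3 and adjusted p = 0.027 for the interaction in the edgeR test.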

How the results depend on the processing

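Car8 and Car9 kept their direction under all 21 alternatives run. Their groups did not overlap, so leaving out libraries could hardly have turned the direction, and nothing is read from it. Leaving out 1 library gave a log2FC of 3.16 to 3.50 for Car8 and 1.13 to 1.39 for Car9, and within digit 3 Car9 moved to 2.0. Calls over all IDs were 1512, and 2689 with the digit as a covariate, 2447 within digit 3, 2031 with DESeq2 and 1196 to 1607 with 1 library left out. Name-checked calls were 95, and 153 with the covariate and 80 to 103 with 1 library left out. Hypoxia list calls were 3, and 6 within digit 3 and 2 to 3 with 1 library left out. Neighbour calls were 11, and 7 with name-checked scaling and 10 to 11 with 1 library left out. The replicate block gave 3.54 for Car8, 1.43 for Car9 and 2140 calls over all IDs, and Impad1 passed with it (0.54, adjusted p = 0.0099 by edgeR). Same-numbered libraries had correlated deviations of -0.02 to 0.70 over 6 pairs, and 2 of 6 were best with their own number, so the numbers were not taken as pairs. Of 35 other named genes, 15 kept call and direction under every alternative. Signs turned in genes close to 0. Dnajb5 had 0.092 with library totals, 0.11 within digit 3, 0.046 with the replicate block and -0.11 to 0.036 with 1 library left out. Galt had 0.031 with the covariate, 0.13 with library totals, 0.35 within digit 3, 0.060 with the replicate block and -0.13 to 0.056 with 1 library left out. Gm44380 had 0.057 with library totals, 0.094 within digit 3, 0.052 with the replicate block and -0.22 to 0.11 with 1 library left out. Grhpr had 0.50 within digit 3, and Pnrc1 -0.038 with name-checked scaling. Tmem106b had -0.087 within digit 3, -0.16 with name-checked scaling and -0.055 to 0.22 with 1 library left out, and Zfp292 had -0.20, -0.14 and -0.038 to 0.26. The cause was not tested. Depth limits the precision of Car8 in vector libraries, where counts fell to 5, and most genes of the related pathways could not be read by name.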

Other observations

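Gm11799, a processed pseudogene of 460 bases (GRCm38 chromosome 4, 8166894 to 8167353, minus strand), lies inside an intron of Car8 on the same strand. It had 2 counts in all over the 7 vector libraries, at 0 to 1 each, and 53 over the 6 PSGL1_KO libraries, at 4 to 23 each. It was picked out after its values were seen and was not tested. Reads of unspliced Car8 RNA and of the pseudogene itself cannot be told apart there.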
